A study of Homo sapiens with 6 samples.

Results

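The kinases that phosphorylate the translation factor eIF2alpha, the subunits that direct its dephosphorylation, and IMPACT, an inhibitor of one of the kinases, form a set of 7 genes: EIF2AK1, EIF2AK2, EIF2AK3, EIF2AK4, PPP1R15A, PPP1R15B and IMPACT. They were chosen by name for their function, out of 19775 genes that had a probe set assigned to 1 gene symbol, and had 14 of the 41091 such probe sets. Each gene was read at its probe set with the highest mean signal, and its other probe sets are given beside it. All 7 passed the filter on dim signal. In RefSeq's GRCh38.p14 annotation the kinase genes span chr7:6022247-6059175 (EIF2AK1), chr2:37099210-37156980 (EIF2AK2), chr2:88556741-88628145 (EIF2AK3) and chr15:39934115-40035591 (EIF2AK4). PPP1R15A spans chr19:48872421-48876058, PPP1R15B chr1:204395826-204411817 and IMPACT chr18:24426670-24453531.

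The cells were A375, a human melanoma line with an activated BRAF kinase, in which the gene for the initiation factor eIF4B had been knocked out by CRISPR. The knockout cells had then been transduced by lentivirus with a LacZ control (KO/LacZ) or with eIF4B of wild-type sequence (KO/eIF4B), called the knockout and the rescued line here, so both lines carry the knockout and differ in the transgene. Each of the 2 lines received the vehicle DMSO or vemurafenib at 10 µM, the drug for either 6 h or 18 h, with 1 Affymetrix array per combination and 6 in all. Vemurafenib inhibits mutant BRAF and lowers ERK signalling. How long the vehicle was applied is not stated in the labels, so time in culture and the drug cannot be told apart. Separate cultures are not stated either, nor whether the knockout is 1 clone, so p-values measure only the spread between these arrays.

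Phosphorylation of eIF2alpha lowers the recycling of the initiation factor eIF2 by eIF2B. Most translation then falls, while a few mRNAs such as that of the transcription factor ATF4 are translated more, and this programme is called the integrated stress response. The kinases sense different stresses: EIF2AK1 (HRI) haem shortage and mitochondrial stress, EIF2AK2 (PKR) double-stranded RNA, EIF2AK3 (PERK) unfolded protein in the endoplasmic reticulum and EIF2AK4 (GCN2) amino acid shortage. PPP1R15A (GADD34), which stress induces, and PPP1R15B (CReP), which is made constitutively, bring protein phosphatase 1 to eIF2alpha. The activity of the kinases is regulated largely at the protein level. Arrays measure neither this nor the amount of any protein.

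The region before a gene's start is shown for the phosphatase subunit whose mRNA fell with the drug and for the one whose mRNA did not pass the test, because they are known for induced and constitutive expression. Sequences are from RefSeq (GRCh38.p14), 250 bases up to the base before the annotated start, 5′ to 3′ on the gene's strand, with capitals for matches to the motifs searched. The PPP1R15A window is chr19:48872171-48872420 (plus strand) and the PPP1R15B window chr1:204411818-204412067 (minus strand).
PPP1R15A: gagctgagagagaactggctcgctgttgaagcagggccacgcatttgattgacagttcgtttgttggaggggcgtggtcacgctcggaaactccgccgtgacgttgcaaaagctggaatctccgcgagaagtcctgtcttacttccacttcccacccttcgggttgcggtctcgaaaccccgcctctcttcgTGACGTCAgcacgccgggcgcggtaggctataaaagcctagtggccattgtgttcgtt
PPP1R15B: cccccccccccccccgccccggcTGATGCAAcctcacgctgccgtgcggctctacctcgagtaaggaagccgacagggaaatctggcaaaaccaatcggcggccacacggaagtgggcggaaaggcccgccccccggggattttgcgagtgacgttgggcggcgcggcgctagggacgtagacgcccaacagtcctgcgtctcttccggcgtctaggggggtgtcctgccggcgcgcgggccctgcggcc

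Motifs were searched on both strands over 300 bases, from 250 before the start to 50 after it, in the 6 members that had an entry (EIF2AK1 had none) and in 35116 gene windows. The EIF2AK3 window, which is not shown, was taken at a start inside the gene's annotated span (its upstream bases are chr2:88627465-88627714), while the other 5 windows adjoin the span. PPP1R15A held the cAMP response element TGACGTCA at positions -58 to -51 from its start, a motif found in 1.85% of all windows. PPP1R15B held TGATGCAA, a composite element that C/EBP and ATF proteins can bind, at positions -227 to -220 (0.866% of windows). EIF2AK2, an interferon-induced gene, had the interferon response element core GAAANNGAAA across its start (3.57% of windows), shown in capitals in the 30 bases at chr2:37156967-37156996 (minus strand).
EIF2AK2: agtccaagggGAAAACGAAActgagaacca

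None of the 6 windows held the ETS motif CCGGAAGT, which 4.14% of all windows did. These matches are descriptions of sequence. No binding was measured.

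After 6 h of vemurafenib 2 of the 7 members had changed, PPP1R15A lower and IMPACT higher. After 18 h 4 had changed, PPP1R15A lower and EIF2AK1, EIF2AK4 and IMPACT higher, though the other EIF2AK4 probe set was lower. EIF2AK2, EIF2AK3 and PPP1R15B passed the test at neither time. Every one of these changes was below 2-fold. The test was an additive limma model (line plus treatment) of the 6 arrays, and p-values were adjusted by Benjamini and Hochberg's method over the 13506 genes tested, with 0.05 as the limit. By that rule 16.2% of all tested genes changed at 6 h (7.34% higher, 8.82% lower) and 51.4% at 18 h (28.1% higher, 23.3% lower). The members' median difference was 0.05 log2 units at 6 h, against 0.03 over all genes, and 0.0068 at 18 h, against 0.0087. A count of 4 in 7 at 18 h is thus near the background. The spread in this fit is the disagreement between the 2 lines in their response, which limma draws toward the spread of all genes. The gene's own part has 2 degrees of freedom and the shared part 3.19.

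**Figure D1:**
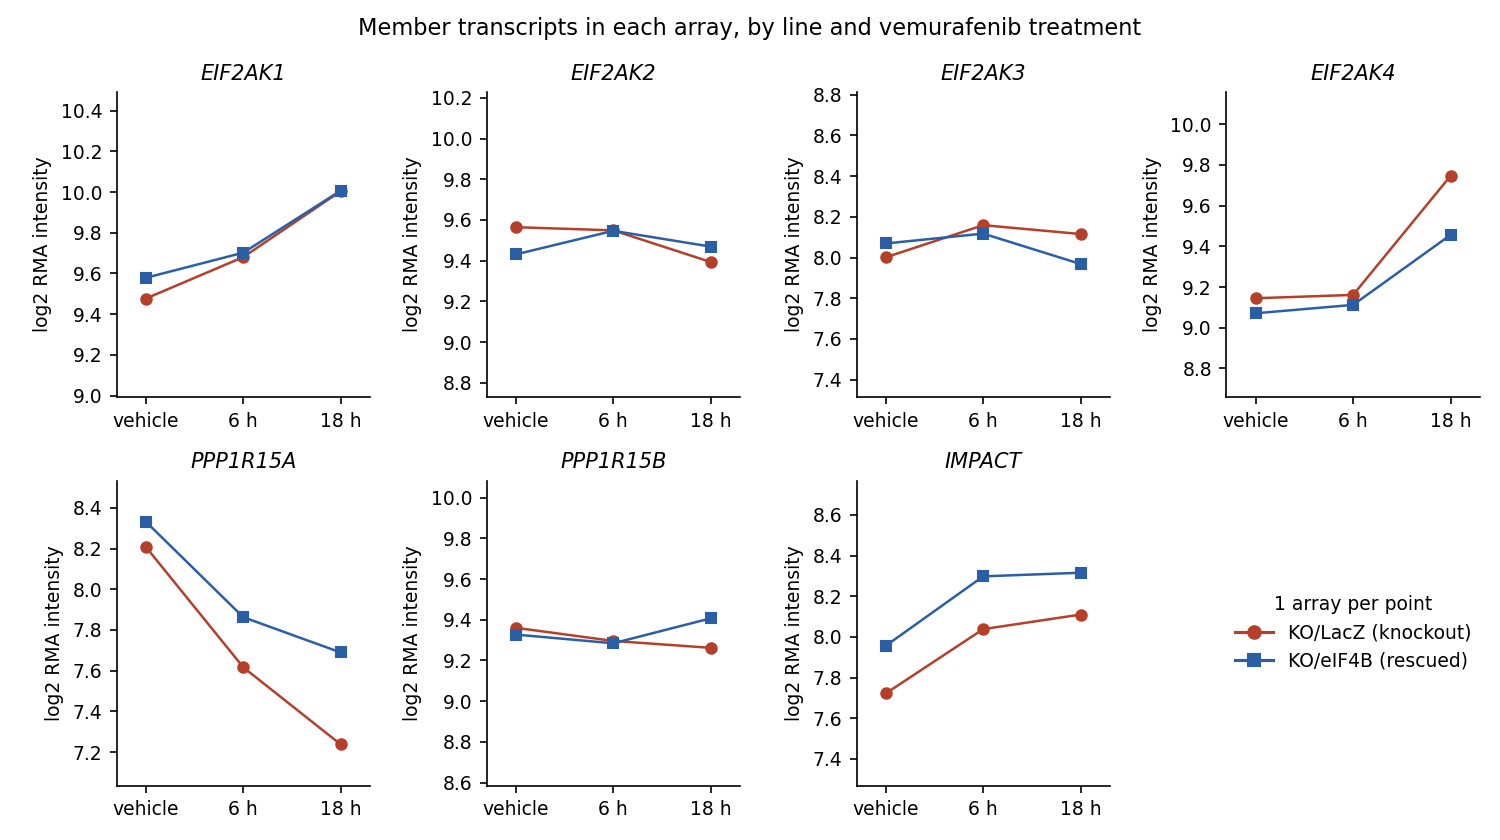
Signal of the 7 members (log2 RMA intensity, each panel spanning 1.5 units) under vehicle, 6 h and 18 h of vemurafenib, 1 array per point, in the knockout line (red circles) and the rescued line (blue squares). PPP1R15A falls from 8.21 and 8.33 under vehicle to 7.24 and 7.69 at 18 h, and EIF2AK1 reaches 10.00 and 10.01 at 18 h. EIF2AK4 stands apart at 18 h alone at the probe set shown, its brightest.

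Among the kinases, EIF2AK1 read 9.48, 9.68 and 10.00 (log2 signal) in knockout cells (vehicle, then 6 h, then 18 h of drug) and 9.58, 9.70 and 10.01 in rescued cells. Both 18 h arrays were above both 6 h arrays, and these above both vehicle arrays, with the lines within 0.10 of each other under each treatment. The share of all genes with such an order was not counted. The rise at 18 h was 0.48 log2 units, or 1.39-fold (SE 0.06; 0.53 in knockout cells and 0.43 in rescued cells; limma adjusted p = 0.0026). At 6 h the difference of 0.16 did not pass (limma adjusted p = 0.14). The second EIF2AK1 probe set, with signals from 6.43 to 6.75, was higher at 18 h by 0.18 and 0.26 in the 2 lines, and this did not pass when all probe sets were tested (limma adjusted p = 0.090).

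EIF2AK4, whose activity depends on uncharged tRNA, read 9.14, 9.16 and 9.75 in knockout cells and 9.07, 9.11 and 9.46 in rescued cells, in the same order of treatments. Vehicle and 6 h arrays lay together and both 18 h arrays stood above them, a pattern whose share over all genes was not counted. The difference was 0.03 at 6 h and 0.49 at 18 h, or 1.41-fold (SE 0.08; 0.60 and 0.39 in the knockout and rescued lines; limma adjusted p = 0.0057). Its other probe set went the opposite way. That probe set read 6.04, 6.18 and 5.45 in knockout cells and 6.18, 6.25 and 5.36 in rescued cells, lower at 18 h by 0.70 (SE 0.09; limma adjusted p = 0.0033 over 41091 probe sets, of which 29.8% changed). The brighter probe set passed in the same fit of all probe sets (limma adjusted p = 0.012), so the 2 disagree in direction, both past the threshold. Averaging them left a difference of -0.10 at 18 h, which did not pass (limma adjusted p = 0.29). The EIF2AK4 rise therefore holds for 1 of its 2 probe sets. Which part of the transcript either one matches was not analysed here.

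EIF2AK2 read 9.56, 9.55 and 9.39 in knockout cells and 9.43, 9.55 and 9.47 in rescued cells. The lines crossed, and all 6 arrays lay within 0.17 log2 units. Its difference at 18 h was -0.07, with a 95% interval from -0.25 to 0.12 (limma adjusted p = 0.50), which bounds a change of this probe set to less than 1.19-fold lower and 1.09-fold higher. The second probe set, with signals from 9.13 to 9.49, differed at 18 h by 0.16 (limma adjusted p = 0.22 over all probe sets), and the third, from 5.30 to 5.63, by -0.14 (limma adjusted p = 0.38). Neither passed.

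EIF2AK3, the endoplasmic reticulum kinase, read 8.001, 8.16 and 8.12 in knockout cells and 8.07, 8.12 and 7.97 in rescued cells. No treatment stood apart. The difference was 0.10 at 6 h (limma adjusted p = 0.39) and 0.0068 at 18 h (limma adjusted p = 0.95), with a 95% interval at 18 h from -0.18 to 0.20. Its other probe set was dim, at 2.68 to 2.85 in all arrays, below the filter of 5.

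Of the phosphatase subunits, PPP1R15A read 8.21, 7.62 and 7.24 in knockout cells and 8.33, 7.86 and 7.69 in rescued cells. Both vehicle arrays were above all 4 drug arrays, and the lowest array was that of the knockout line at 18 h. How many of all genes show that separation was not counted. The fall was 0.53 at 6 h, or 1.44-fold (log2 difference -0.53, SE 0.09; -0.59 in knockout cells and -0.47 in rescued cells; limma adjusted p = 0.023), a call lost with the line left out of the model (limma adjusted p = 0.13). At 18 h it was 1.75-fold (log2 difference -0.81; -0.97 and -0.64; limma adjusted p = 0.0017). The second probe set, read at 7.73, 7.06 and 6.69 in knockout cells and 7.72, 7.15 and 7.02 in rescued cells, fell in the same way, by 0.62 at 6 h (limma adjusted p = 0.032 over all probe sets, 5.51% of which changed) and by 0.87 at 18 h (limma adjusted p = 0.0026). Among the members' brightest probe sets that of PPP1R15A had the largest absolute change at both times, above that of 92.9% of all tested genes at 6 h and 87.9% at 18 h.

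PPP1R15B, read by 1 probe set, gave 9.36, 9.30 and 9.26 in knockout cells and 9.33, 9.28 and 9.41 in rescued cells. All 6 arrays lay within 0.14 log2 units, and 4.48% of tested genes had a smaller range. Its differences were -0.05 at 6 h and -0.0093 at 18 h (limma adjusted p = 0.65 and 0.93), with a 95% interval at 18 h from -0.19 to 0.17. The interval for PPP1R15A at 18 h ran from -1.04 to -0.57. The difference between the responses of these subunits was not itself tested.

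IMPACT competes with EIF2AK4 for its activator GCN1 and so restrains that kinase. It read 7.72, 8.04 and 8.11 in knockout cells and 7.96, 8.30 and 8.32 in rescued cells. Each line rose at 6 h and stayed near that level at 18 h, and within each line both drug arrays were above vehicle. How common this is over all genes was not counted. The rise was 0.33 at 6 h, or 1.26-fold (SE 0.06; 0.32 and 0.34 in the knockout and rescued lines; limma adjusted p = 0.024), and 0.37 at 18 h, or 1.30-fold (0.39 and 0.36; limma adjusted p = 0.0048). The 6 h call was lost without the filter on dim genes (limma adjusted p = 0.054) and in the fit of all probe sets (0.070), and both calls with the line left out of the model (limma adjusted p = 0.22 and 0.073). The other probe set read 7.16, 7.67 and 7.52 in knockout cells and 7.14, 7.89 and 7.49 in rescued cells. It was higher by 0.63 at 6 h (limma adjusted p = 0.024 over all probe sets) and by 0.36 at 18 h (limma adjusted p = 0.039).

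**Figure D2:**
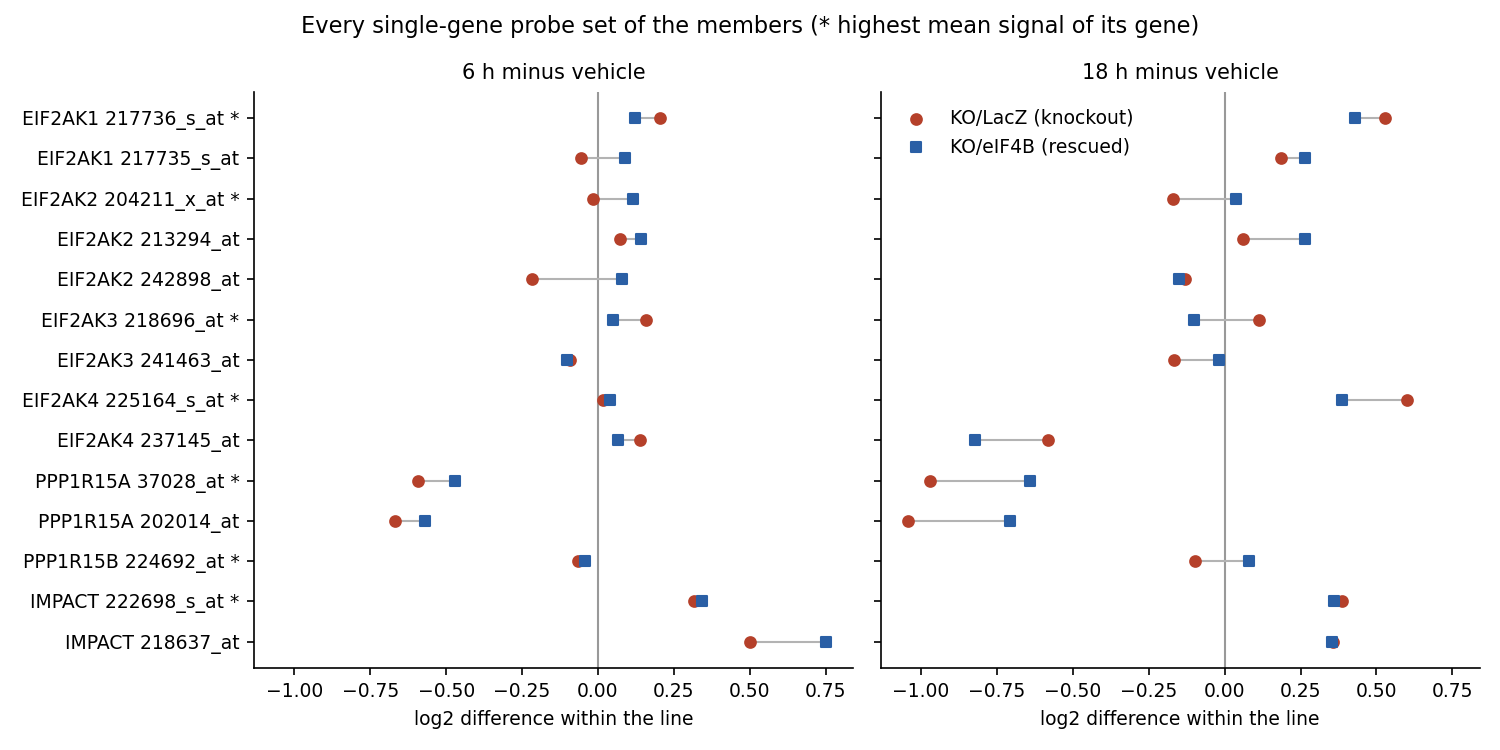
Difference from vehicle (log2) of each of the 14 probe sets of the members at 6 h (left) and 18 h (right), within the knockout line (red circles) and the rescued line (blue squares), 1 pair of arrays per point. The 2 PPP1R15A probe sets lie together, between -0.64 and -1.04 at 18 h, while the 2 EIF2AK4 probe sets lie on opposite sides of 0.

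The 2 drug times were also compared directly, which shares no vehicle array, to ask which changes came late; the comparisons with vehicle share theirs. EIF2AK1 was higher at 18 h by 0.31 (SE 0.06; 0.32 and 0.30 in the knockout and rescued lines; limma adjusted p = 0.017) and EIF2AK4 by 0.46 (0.58 and 0.34; limma adjusted p = 0.013). These were 2 of 7 members, where 34% of all genes changed, 19% being higher and 14.9% lower. The dimmer EIF2AK4 probe set was lower by 0.81 (limma adjusted p = 0.0076 over all probe sets, 14.8% of which changed). PPP1R15A was lower by 0.38 and 0.17 in the 2 lines and did not pass (log2 difference -0.28, limma adjusted p = 0.074). IMPACT differed by 0.04 (limma adjusted p = 0.59), with a 95% interval from -0.11 to 0.19. Its other probe set was lower by 0.27, outside that interval, and did not pass (limma adjusted p = 0.12 over all probe sets). The second EIF2AK1 probe set was higher by 0.21 and did not pass either (limma adjusted p = 0.15).

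The comparison of the lines asks whether these mRNAs differed between KO/LacZ and KO/eIF4B cells over all treatments. No unedited A375 cells were among the 6 arrays, so loss of eIF4B and its re-expression cannot be told apart. EIF4B itself was lower in the knockout line (log2 difference -1.68) at its brightest probe set (limma adjusted p = 0.0082 over all probe sets), while its other 2 probe sets differed by 0.19 and 0.17 and did not pass. None of the 7 members passed the test between the lines (limma, adjusted p of 0.080 or more), against 2.5% of all genes (1.44% higher and 1.06% lower in the knockout line) and 0.105% of probe sets. At an unadjusted p below 0.05 there were 2 of 7, IMPACT and PPP1R15A, against 23% of all genes. IMPACT was lower in the knockout line in 3 of 3 pairs, by 0.23 under vehicle, 0.26 at 6 h and 0.21 at 18 h (mean log2 difference -0.23, SE 0.05, limma adjusted p = 0.080), and it passed when eBayes was run with both a trend and robust estimation (limma adjusted p = 0.041). Its other probe set differed by 0.03, -0.22 and 0.03 in the same pairs. PPP1R15A was lower in the knockout line by 0.12, 0.25 and 0.45 (mean log2 difference -0.27, limma adjusted p = 0.13), and its other probe set differed by 0.01, -0.09 and -0.33. The second EIF2AK2 probe set was higher in the knockout line in 3 of 3 pairs, by 0.29, 0.22 and 0.08 (limma adjusted p = 0.29 over all probe sets). The share of all genes or probe sets that keep 1 direction in all 3 pairs was not counted.

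Whether the lines differed in their response to the drug was tested by a term shared by 6 h and 18 h, which leaves 1 residual degree of freedom. No member passed (limma adjusted p of 1.0 for each), nor did any of the 13506 genes (0%), 302 of which had an unadjusted p below 0.05. The widest values were -0.23 for PPP1R15A, with a 95% interval from -0.63 to 0.18, and -0.17 for EIF2AK2, from -0.53 to 0.19. Differences of that size between the lines were therefore not detectable with these arrays.

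**Figure D3:**
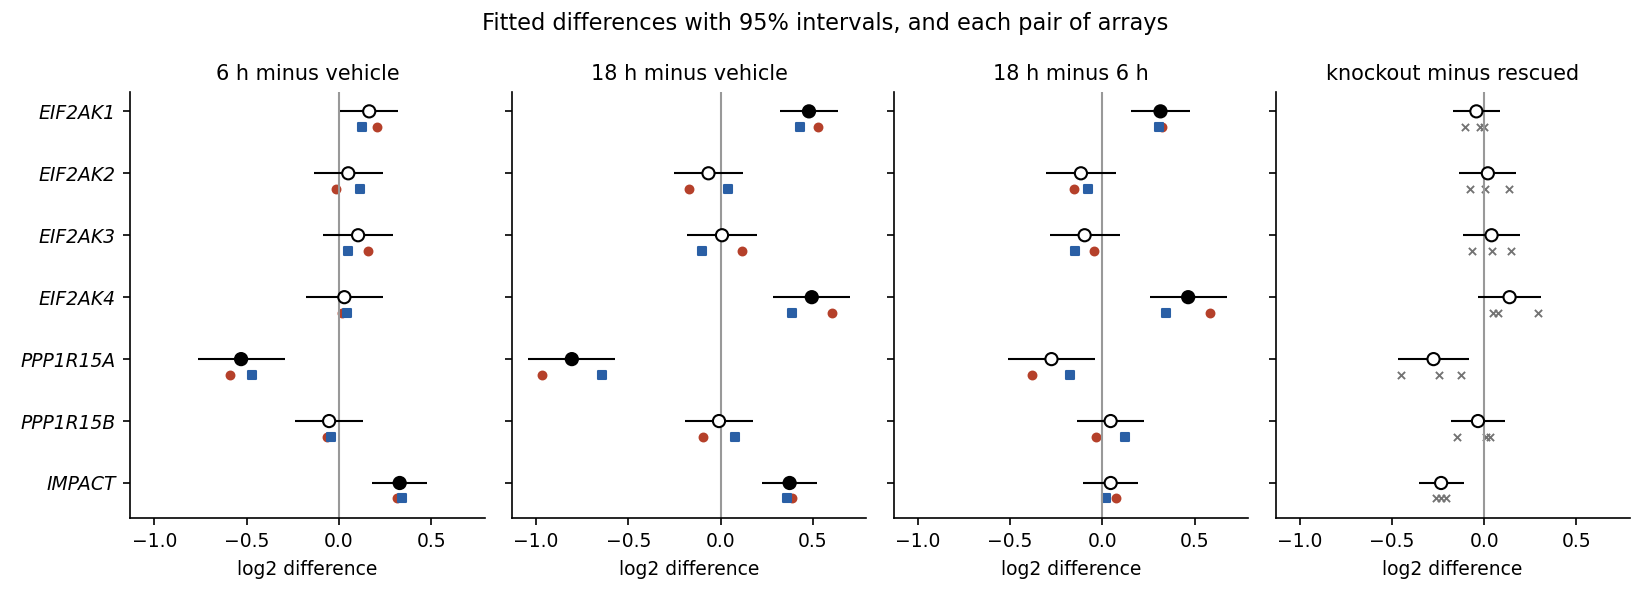
Differences of the 7 members (log2) from the additive fit over 6 arrays, with 95% intervals as bars and filled points where the adjusted p is below 0.05. The points under each bar are single pairs of arrays (red circles the knockout line, blue squares the rescued line, grey crosses the 3 treatments). PPP1R15A lies left of 0 at 6 h and 18 h, the bars of EIF2AK2, EIF2AK3 and PPP1R15B cross 0 in all 4 panels, and no point is filled between the lines.

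The substrate and its exchange factor were set beside the kinases. Of 10 genes for eIF2, eIF2B and their partners, 0 changed at 6 h (limma; 1 of 10 had an unadjusted p below 0.05, against 32.7% of all genes). At 18 h 5 fell and 1 rose, where 51.4% of all genes changed (28.1% higher, 23.3% lower). The median was -0.26 against 0.0087 for all genes. EIF2S1, which encodes eIF2alpha itself, fell by 0.64 (limma adjusted p = 0.0018), EIF2B3, an eIF2B subunit, by 0.54, EIF5, the GTPase activator of eIF2, by 0.40 and CDC123, which assembles eIF2, by 0.34. EIF2B5, the catalytic eIF2B subunit, was the other that fell, by 0.28. EIF2S3, the GTP-binding subunit, rose by 0.41 (limma adjusted p = 0.0036). EIF2S1 read 11.07 and 11.06 under vehicle and 10.37 and 10.49 at 18 h in the knockout and rescued lines. Both 18 h arrays thus lay below both vehicle arrays, and the share of all genes for which this holds was not counted.

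Of 11 regulators of the kinases, 0 changed at 6 h by limma. At an unadjusted p below 0.05 there was 1 of 11, under the same 32.7%. At 18 h 2 rose and 2 fell, where 51.4% of all genes changed. OMA1, the mitochondrial protease that activates the EIF2AK1 pathway, rose by 0.50, and ADAR, which edits double-stranded RNA, rose by 0.22. HSPA5, the chaperone that holds EIF2AK3 inactive, fell by 0.40 and HSP90AA1, a chaperone of EIF2AK1, by 0.35. The activators GCN1 and PRKRA and the inhibitor DNAJC3 did not pass at 18 h, at 0.04, 0.07 and -0.25. DELE1, from the same list, did not pass either, at 0.20 (0.35 in knockout cells and 0.05 in rescued cells). Among 6 genes for the catalytic subunits of protein phosphatase 1 and its partners, 1 changed at each time. Over all genes 16.2% changed at 6 h and 51.4% at 18 h. NCK2, an adaptor, fell by 0.41 at 6 h, and PPP1CB, a catalytic subunit, rose by 0.39 at 18 h. PPP1CA and PPP1CC, the other catalytic subunits, stood at 0.07 and -0.08 at 18 h and did not pass.

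PPP1R15A is known as one of the mRNAs induced when eIF2alpha is phosphorylated, and 16 others were counted. Of these, 8 rose and 0 fell at 6 h, with a median of 0.87 against 0.03 for all genes. Again 8 rose and 0 fell at 18 h (median 0.64, against 0.0087). Over all genes 7.34% rose at 6 h and 28.1% at 18 h. At 6 h CHAC1, which degrades glutathione, rose by 1.95, VLDLR, a lipoprotein receptor, by 1.79, the transcription factor ATF3 by 1.38 and ASNS, asparagine synthetase, by 1.37. In knockout and then rescued cells these rises were 1.58 and 2.32 for CHAC1 and 0.92 and 2.65 for VLDLR. They were 1.48 and 1.28 for ATF3 and 0.84 and 1.91 for ASNS. ATF4 rose by 0.62 (limma adjusted p = 0.031), with 0.40 in knockout cells and 0.83 in rescued cells. DDIT3, the factor that induces PPP1R15A under stress, rose by 1.24 (limma adjusted p = 0.0038). DDIT3 read 7.95, 8.98 and 8.96 in knockout cells and 8.55, 9.99 and 9.87 in rescued cells, lower in the knockout line under every treatment. DDIT3 and CHAC1 were the 2 of 16 genes that passed between the lines, against 2.5% of all genes. They were lower in the knockout line by 0.84 and 1.25 (limma adjusted p = 0.031 and 0.043), and the list median was -0.57. Each is a difference averaged over the 3 treatments. The summed signal of the 16 genes was 13.77 and 13.69 under vehicle (knockout, then rescued). It was 14.11 and 14.73 at 6 h and 14.06 and 14.73 at 18 h. The list's line difference was thus not alike under each treatment, and this was not tested for the list. These genes were known from earlier results on the same arrays and are no independent evidence.

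The unfolded protein response has branches beside EIF2AK3, and 8 genes from them were counted. At 6 h 1 rose and 3 fell, where 7.34% of all genes rose and 8.82% fell. At 18 h 2 rose and 2 fell, near the 51.4% of all genes that changed. HERPUD1 rose by 0.57 and EDEM1, SDF2L1 and DNAJB9 fell by 0.50, 0.39 and 0.39 at 6 h. At 18 h the sensors ATF6B and ATF6 rose by 0.58 and 0.29 and SDF2L1 and EDEM1 fell by 1.05 and 0.44. EIF2AK3 and ERN1, the other sensors, did not pass at either time.

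EIF2AK2 is itself induced by interferon, so interferon-induced genes were counted. Of 11 tested, 4 rose and 0 fell at 6 h, against 7.34% and 8.82% of all genes. At 18 h 8 rose and 1 fell, against 28.1% and 23.3%. The median at 18 h was 0.74, against 0.0087 for all genes. The transcription factor IRF9 rose by 1.89. IFIT1 and IFIT2, which bind viral RNA, rose by 1.78 and 1.58 and the ubiquitin-like ISG15 by 1.23, while IRF1 fell by 0.44. EIF2AK2, at -0.07 at its brightest probe set and 0.16 at its second, lay below the list median, and this difference was not tested. The listed genes OAS3 (-0.13) and RIGI (0.12) lay below it too and did not pass. ERK-dependent early genes all fell, 13 of 13 at both times, where 8.82% and 23.3% of all genes fell, with medians of -2.42 and -2.49. The smallest falls among them at 18 h were those of IER2 (-0.47) and FOS (-0.96), and PPP1R15A, at -0.81, lay between these values. At 6 h PPP1R15A, at -0.53, fell less than any of the 13, the smallest fall being that of IER2 (-0.73). FOS read 4.62 and 4.78 in the 18 h arrays (knockout, then rescued), below 5, so its fall may be compressed.

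**Figure D4:**
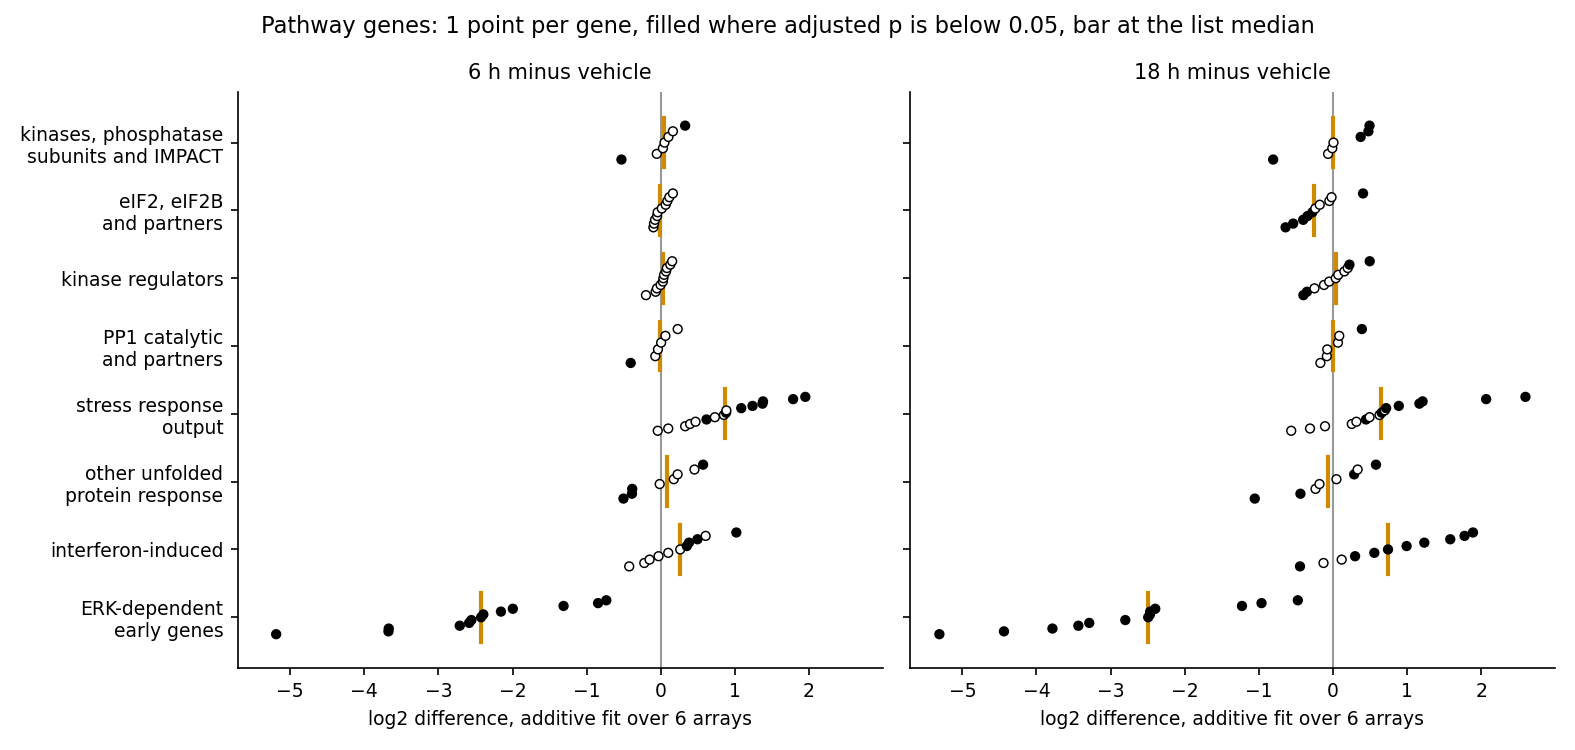
Difference from vehicle (log2, additive fit over 6 arrays) of every tested gene in 8 lists at 6 h (left) and 18 h (right), 1 point per gene, filled where the adjusted p is below 0.05, with an orange bar at the list median. The ERK-dependent genes lie left of 0 (medians -2.42 and -2.49), the stress response output mostly right of it (medians 0.87 and 0.64), and the kinases, phosphatase subunits and IMPACT between -0.81 and 0.49.

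The genes whose pattern over the 6 arrays was most like that of each member were found by Pearson correlation among 1830 tested genes with a range of at least 1 log2 unit. All points share the same 6 arrays, and most of the spread is the treatment, so the values are descriptions. IMPACT was most like ZBTB20 (r = 0.994), TLR3 (0.987), DDIT3 (0.984) and AARS1, alanyl-tRNA synthetase (0.963). PPP1R15A was most like UPP1, uridine phosphorylase (0.994), UAP1 (0.988), LINC02915 (0.987) and SH3RF3 (0.984). EIF2AK4 was most like RHOU (0.996), PCDH7 (0.996), TNNT1 (0.995) and TRAPPC6A (0.994), and EIF2AK1 most like CLN8-AS1 (0.997), SPMIP4 (0.997), SYTL2 (0.994) and PJA2 (0.994). For the members that varied least the highest values were lower: 0.880 for PPP1R15B with GDF15, 0.844 for EIF2AK2 with ANXA3 and 0.779 for EIF2AK3 with CLTRN.

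The arrays were alike in scale, with median log2 signals of 5.196 to 5.221. The melanocyte lineage factors SOX10 and MITF had mean signals of 10.27 and 9.18 and vimentin (VIM) 13.68. Of the pigment genes, MLANA and TYRP1 were below 5, while PMEL (5.68) and TYR (5.57) were above it. Of 8 melanoma lineage genes tested, MITF rose (1.01) and SOX10 fell (-0.63) at 6 h, and MITF, S100A1 and SOX9 rose at 18 h by 1.63, 0.28 and 0.32. Of the markers of other cells, 6 of 16 had mean signals below 5: EPCAM, CDH1, PTPRC, CD14, COL1A2 and PDGFRA. The other 10 did not. Among fibroblast markers COL1A1 had a mean of 7.95, LUM 7.999 and DCN 6.63. Among blood cell markers CD3E had 5.76, HBB 6.65 and LYZ 6.64. The keratins KRT5, KRT8, KRT14 and KRT18 had 5.74, 8.34, 9.72 and 12.23. The fibroblast matrix genes LUM and DCN rose, by 1.05 and 0.39 at 6 h and by 2.49 and 1.78 at 18 h (2 of 3 tested), and the summed signal of the 5 fibroblast markers went from 8.70 and 9.01 under vehicle to 9.97 and 10.33 at 18 h. The summed signal of the 5 blood cell markers went from 8.17 and 8.37 to 7.97 and 8.04, with LYZ, at -0.86 at 18 h, the 1 of 3 tested that passed. The summed signal of the 6 epithelial markers went from 12.95 and 12.63 to 12.60 and 12.27, and of 4 tested KRT14 rose (1.45), KRT8 rose (0.39) and KRT18 fell (-0.78) at 18 h. The part of these markers in the changes of the members was not tested. Over all genes, 16.2% changed at 6 h and 51.4% at 18 h. In whole-culture RNA, fewer cells of a type and less RNA per cell cannot be told apart.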

How the data were processed

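Total RNA of 6 A375 samples was hybridised as biotin-labelled cRNA, per the labels' protocols. The authors deposited linear RMA intensities (3.01 to 19000). The submitters' processing notes name RMA and affy; their versions are not given in the sources used here. By its design RMA quantile-normalizes the arrays together, so a change in total mRNA would not be seen, and it compresses changes of very dim probe sets. Here log2 was taken, 62 array controls were left out, and probe sets with 1 symbol in the platform annotation were kept (41091, 41037 of them matched to RefSeq's GRCh38.p14 table). The gene fit used the probe set with the highest mean of each gene, where that mean reached 5 log2 units (13506 genes tested). Models were fitted by lmFit and eBayes of limma 3.58.1 (R 4.3.3; 2 residual and 3.19 prior degrees of freedom), and p-values adjusted over all genes. A second fit held every probe set. The script was tested on simulated data.

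The members and lists were chosen with earlier results of these data known. Named genes were all members, up to 4 list genes per comparison with the largest change past the threshold, genes that complete a count of 5 or fewer, EIF4B, cell type markers and the 4 genes most like each member. GCN1, PRKRA, DNAJC3, DELE1, PPP1CA, PPP1CC, ATF4, DDIT3, ERN1, OAS3, RIGI, IER2 and FOS were added after their values were seen. Alternatives are in the closing section.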

Additional observations from a re-analysis of the deposited data

Results flagged for a closer look

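In 5 cases a member moved in opposite directions in the 2 lines, each value resting on 1 pair of arrays. EIF2AK2 differed from vehicle by -0.016 in knockout cells and 0.12 in rescued cells at 6 h, and by -0.17 and 0.038 at 18 h. EIF2AK3 differed at 18 h by 0.11 in knockout cells and -0.10 in rescued cells. PPP1R15B differed at 18 h from vehicle by -0.098 and 0.080, and from 6 h by -0.034 and 0.12. These opposite signs were not tested at a single time. The term shared by both times passed for none of these genes (limma adjusted p of 1.0).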

How the results depend on the processing

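The number of arrays limits the precision, and the RMA values come with no call of whether a probe set was detected. Over 8 alternatives for each drug comparison and 7 for the lines, EIF2AK1 and PPP1R15A passed at 18 h under all (limma adjusted p up to 0.0070 and 0.012). Of 217 single values 204 kept their direction and side of the threshold. Direction could change only with averaged probe sets, median centring or 16 added before log2. The other alternatives keep the same difference and alter its p-value alone. Of 28 values from the other probe sets, which are not among the 217, 15 kept both and 11 reversed. At 6 h the members passing went from 2 to 1 without the dim filter and to 1 with every probe set tested (IMPACT lost, adjusted p = 0.054 and 0.070), and to 0 with the line left out of the fit, which puts the line difference into the spread (PPP1R15A 0.13, IMPACT 0.22). At 18 h the members passing went from 4 to 3 with averaged probe sets (EIF2AK4 lost, limma adjusted p = 0.29). They also went to 3 with the line left out (IMPACT lost, 0.073). For 18 h against 6 h they went from 2 to 1 with averaged probe sets, and between the lines from 0 to 1 (IMPACT) with eBayes run with trend and robust estimation together, which also called PPP1R15A for 18 h against 6 h (0.045). Averaged probe sets reversed EIF2AK4 (-0.10 at 18 h, -0.17 for 18 h against 6 h), EIF2AK3 at 18 h (-0.043), IMPACT for 18 h against 6 h (-0.11) and EIF2AK1 between the lines (0.0068), and median centring reversed EIF2AK3 at 18 h (-0.00042). The other probe sets reversed EIF2AK4 (-0.70 at 18 h, -0.81 against 6 h, -0.040 between lines), EIF2AK2 (-0.070 at 6 h, 0.16 at 18 h, 0.054 against 6 h), EIF2AK3 (-0.097, -0.092, 0.0055), IMPACT (-0.27 against 6 h) and EIF2AK1 (0.056 between lines), the cause not being tested. Over all genes, 2182 calls at 6 h became 1398 without the dim filter and 976 with the line left out, 6947 at 18 h became 12233 of 41091 probe sets, 4587 for 18 h against 6 h became 2727 with the line left out, and 337 between the lines became 58 without the filter, 513 with a filter of 6, 541 with 16 added before log2, 1196 with trend and robust estimation and 43 over probe sets. The labels number no replicates, and the line, a term of the fit, pairs the arrays of a line.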
